A study of Mus musculus with 3 samples.

Results

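The mast cell genes described here are *Mcpt4*, *Cma1*, *Tpsb2*, *Cpa3*, *Kit*, *Fcer1a*, *Ms4a2* and *Hdc*, 8 genes chosen by symbol out of the 32285 genes counted in wounded mouse skin. Transcripts were located with Visium, where a slice of tissue is laid over an array of 4992 spots and each RNA molecule is counted once, by its unique molecular identifier (UMI), at the spot that caught it. There was 1 section for each of Day 3, Day 7 and Day 14, all from C57BL/6J mice. According to the methods of the study, adult males received full-thickness excisional punch wounds in shaved dorsal skin, so every section holds wounded skin and no unwounded section was analysed here. With 1 section per day no test between days was possible, and every interval below is an exact 95% interval of counting error only, without variation between animals or wounds. A spot is a small region that can hold several cells, and fewer mast cells in a spot cannot be told apart from less RNA per mast cell.

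Mast cells are long-lived resident immune cells of the dermis that store ready-made mediators in granules. Connective tissue mast cells of mouse skin pack these granules with chymases, tryptases and carboxypeptidase, held on heparin together with histamine. They depend on stem cell factor for survival and release their granules when IgE bound to its high-affinity receptor is cross-linked by antigen. The 8 genes cover these parts. *Mcpt4* and *Cma1* encode chymases, *Tpsb2* a tryptase and *Cpa3* the mast cell carboxypeptidase, and these are called the 4 granule proteases below. *Kit* encodes the receptor for stem cell factor, which melanocytes also carry. *Fcer1a* and *Ms4a2* encode the alpha and beta chains of the IgE receptor. *Hdc* encodes histidine decarboxylase, the enzyme that makes histamine, and other myeloid cells, neutrophils among them, also use it.

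In the GRCm38 annotation (GENCODE M21), *Mcpt4* (ENSMUSG00000061068) and *Cma1* (ENSMUSG00000022225) both lie on the minus strand of chromosome 14, at chr14:56059629-56062313 and chr14:55941451-55944675. *Cpa3* (ENSMUSG00000001865) lies on the minus strand of chromosome 3 at chr3:20215620-20242181. *Tpsb2* lies on chromosome 17, *Kit* on chromosome 5, *Fcer1a* on chromosome 1, *Ms4a2* on chromosome 19 and *Hdc* on chromosome 2, and all 8 are annotated as protein coding. The bases just before the start are shown for *Mcpt4*, *Cma1* and *Cpa3*, the granule proteases with a promoter in the RefSeq table, because the comparisons below turn mostly on the proteases. They are of build GRCm38.p6, run from 150 to 11 bases before the start, and are read 5′ to 3′ on the minus strand. Capitals mark a GATA-type hexamer, a letter pattern of the kind bound by GATA factors. The search took AGATAA, the same hexamer beginning with T instead (TGATAA), the one ending with G instead (AGATAG) and the one with both exchanges (TGATAG), on both strands. In *Cma1* the capitals spell the third of these as read on the opposite strand.
*Mcpt4*, chr14:56062321-56062460: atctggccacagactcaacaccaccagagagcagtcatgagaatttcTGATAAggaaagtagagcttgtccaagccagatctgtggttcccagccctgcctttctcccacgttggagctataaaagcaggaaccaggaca
*Cma1*, chr14:55944686-55944825: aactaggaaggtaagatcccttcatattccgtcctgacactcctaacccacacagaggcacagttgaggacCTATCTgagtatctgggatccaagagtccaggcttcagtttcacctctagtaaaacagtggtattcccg
*Cpa3*, chr3:20242192-20242331: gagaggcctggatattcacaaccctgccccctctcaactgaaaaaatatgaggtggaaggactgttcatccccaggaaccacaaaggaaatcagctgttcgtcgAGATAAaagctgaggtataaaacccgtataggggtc
Each window held 1 such hexamer, beginning 103 bases before the start in *Mcpt4*, 79 in *Cma1* and 46 in *Cpa3*. Of the other members with an entry, *Fcer1a* and *Ms4a2* also held 1 and *Kit* and *Hdc* 0. Of the 32851 promoter windows of the same length in the RefSeq table, 15.3% held at least 1. A match is a run of letters in this window, and no binding was measured.

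The sections differed in depth. Within the tissue marked by the deposited position lists, the Day 3 section held 1772259 UMIs over 664 spots, the Day 7 section 4442962 over 549 and the Day 14 section 4611723 over 697. The median spot under tissue held between 1513 UMIs (Day 3) and 6687 UMIs (Day 7). Spots beyond that mark caught 49.0% to 59.2% of the UMIs, and 360 (Day 3), 1477 (Day 7) and 1282 (Day 14) of these spots held at least 1000 UMIs. The levels of the members are therefore given for both sets of spots.

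Mast cell protease transcripts were present under tissue on every day, and their level there was lowest on Day 7. Summed over the 4 granule proteases, the Day 3, Day 7 and Day 14 sections gave 129, 197 and 440 UMIs. In UMIs per 1000000 UMIs (CPM), Day 3 was at 72.8 (60.8 to 86.5), Day 7 at 44.3 (38.4 to 51.0) and Day 14 at 95.4 (86.7 to 105). The 3 intervals do not overlap, though those of Day 3 and Day 14 nearly meet. Day 7 was at 0.609 times Day 3 (0.485 to 0.767), Day 14 at 2.15 times Day 7 (1.81 to 2.56) and at 1.31 times Day 3 (1.07 to 1.61). Outside the marked tissue Day 7 was not the lowest day. The proteases were at 38.8, 57.1 and 54.3 CPM there, with Day 7 at 1.47 times Day 3 (1.13 to 1.95). Of the protease UMIs of the Day 7 slide, 65.2% lay outside the mark.

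*Mcpt4*, the chymase that gave most of the protease molecules under tissue, was counted 76, 103 and 225 times there on Day 3, Day 7 and Day 14. Its level was 42.9 CPM (33.8 to 53.7), 23.2 CPM (18.9 to 28.1) and 48.8 CPM (42.6 to 55.6). Day 3 and Day 14 were not distinguishable (ratio 1.14, 0.874 to 1.50), and both lay above Day 7. *Cma1*, the other chymase, was at 16.9, 7.43 and 16.7 CPM from 30, 33 and 77 UMIs, with Day 7 at 0.439 times Day 3 (0.259 to 0.745) and Day 14 level with Day 3 (0.986, 0.639 to 1.56). *Cpa3*, the carboxypeptidase, was at 7.90 CPM on Day 3 from 14 UMIs, at 4.28 CPM on Day 7 from 19 UMIs and at 17.3 CPM on Day 14 from 80 UMIs. Day 7 over Day 3 was 0.541 for *Cpa3*, with an interval (0.257 to 1.17) that includes 1. For *Cpa3* the step from Day 7 to Day 14 was 4.06-fold (2.44 to 7.09), and Day 14 was also 2.20 times Day 3 (1.24 to 4.20). *Tpsb2*, the tryptase, had its lowest level on Day 3. Its 9, 42 and 58 UMIs in the order of days gave 5.08 CPM (2.32 to 9.64), 9.45 CPM (6.81 to 12.8) and 12.6 CPM (9.55 to 16.3), so that neighbouring days overlapped while Day 14 was 2.48 times Day 3 (1.22 to 5.69). The mix of protease molecules differed accordingly: *Tpsb2* made up 6.98% (3.24 to 12.8) of protease UMIs on Day 3 and 21.3% (15.8 to 27.7) on Day 7, and *Cpa3* 9.64% (5.91 to 14.7) on Day 7 and 18.2% (14.7 to 22.1) on Day 14. Reads of *Tpsb2* may be shared with the close copy *Tpsab1*, which was counted once in the marked spots of the 3 sections.

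**Figure D1:**
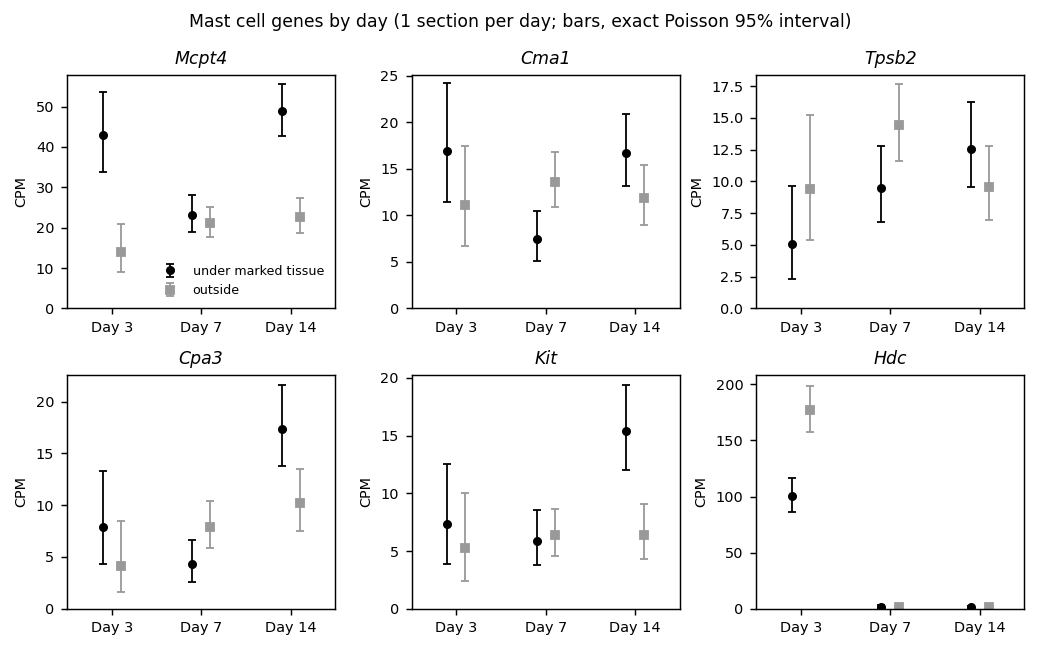
Each panel shows 1 gene, with the day on the x axis and CPM (UMIs of the gene per 1000000 UMIs) on the y axis; black circles are spots under the marked tissue, grey squares spots outside it, and bars are exact Poisson 95% intervals of 1 section each. Under tissue *Mcpt4* is at 42.9, 23.2 and 48.8 CPM, and *Hdc* is at 100.4, 1.80 and 1.30 CPM.

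The receptors were sparse. *Kit* was counted 13, 26 and 71 times under tissue, which is 7.34 CPM (3.91 to 12.5), 5.85 CPM (3.82 to 8.57) and 15.4 CPM (12.0 to 19.4). Day 3 and Day 7 overlapped for *Kit*, and Day 14 was 2.63 times Day 7 (1.66 to 4.30). *Fcer1a* had 0 UMIs in the marked spots of all 3 sections, with exact intervals that reach up to 2.08, 0.830 and 0.800 CPM in the order of days. Outside the marked tissue *Fcer1a* had 0, 2 and 1 UMIs. *Ms4a2* had 1, 2 and 1 UMIs under tissue. The defining chains of the IgE receptor were thus at or near 0 in sections that held 129 to 440 protease UMIs, and no comparison between days was possible for them. *Fcer1g*, the gamma chain that the IgE receptor shares with other receptors of myeloid cells, was counted 483, 909 and 506 times.

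*Hdc* behaved unlike the other members. Under tissue it was counted 178 times on Day 3 but 8 and 6 times on the later days, that is 100.4 CPM (86.2 to 116), 1.80 CPM (0.777 to 3.55) and 1.30 CPM (0.477 to 2.83). On Day 3 it alone made up 55.5% (49.8 to 61.0) of the UMIs of the 8 members, against 3.43% on Day 7 and 1.16% on Day 14. The sum over the 8 members was 181 CPM (162 to 202), 52.4 CPM (45.9 to 59.6) and 112 CPM (103 to 122) in the order of days. Day 14 over Day 3 was 0.620 (0.538 to 0.715) with *Hdc* in the sum and 1.38 (1.14 to 1.67) without it, so the direction of that comparison turned on 1 gene.

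A gene was called higher or lower at a 2-fold difference in CPM, where both sections together held 20 or more of its UMIs. From Day 3 to Day 7, 6 members could be read: 2 were lower (*Cma1* and *Hdc*) and 0 higher, where 7.89% of 12541 genes were lower and 9.74% higher. From Day 3 to Day 14, 3 of 6 were higher (*Tpsb2*, *Cpa3* and *Kit*) and 1 was lower (*Hdc*), against 16.0% of 12866 genes higher and 8.14% lower. From Day 7 to Day 14, 4 of 5 were higher (*Mcpt4*, *Cma1*, *Cpa3* and *Kit*) and 0 lower, against 12.6% of 13412 genes higher and 8.45% lower. Several of these calls depend on the filter. *Hdc* reached the minimum only through Day 3, where it is high, and against Day 3 *Tpsb2*, *Cpa3* and *Kit* (9, 14 and 13 UMIs there) reached it only through Day 14, where they are high. *Cpa3* also needed Day 14 beside its 19 UMIs of Day 7. These counts are given as a description. The median ratio of the members read was 0.541, 1.62 and 2.25 in these 3 comparisons, and that of all genes read was 1.03, 1.14 and 1.09.

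On Day 3 *Hdc* was highest in the spots rich in neutrophil genes. Neutrophils are the first leukocytes to enter a wound, and 10 of their genes (among them *S100a8*, *S100a9*, *Retnlg* and *Csf3r*) summed to 2374, 165 and 108 CPM in the order of days. The 25% of spots richest in these genes on Day 3 held 78 *Hdc* UMIs and the other spots 100, which is 225 against 70.2 CPM, a ratio of 3.20 (2.35 to 4.35). Outside the marked tissue the contrast was wider, with 225 against 77 UMIs, or 1036 against 51.8 CPM, a ratio of 20 (15.4 to 26.3). The 4 granule proteases went the other way under tissue, with 10 UMIs in the neutrophil-rich 25% and 119 in the other spots, 28.8 against 83.5 CPM (ratio 0.345, 0.161 to 0.656). Outside it they had 6 and 60 UMIs in the same spots, 27.6 against 40.4 CPM (ratio 0.685, 0.242 to 1.58). *Hdc* was also higher in the 25% of spots richest in granulation tissue genes (175 against 70.5 CPM, ratio 2.48, 1.82 to 3.36) and lower in the 25% richest in muscle genes (9.01 against 114 CPM, from 2 and 176 UMIs). Spots that held a granule protease UMI had 84.3 CPM of *Hdc* on Day 3 and those without had 105 CPM (ratio 0.804, 0.530 to 1.19). *Mcpt4* was detected in 41 spots under tissue, *Hdc* in 132, and both in 17. According to the paper, *Hdc* also marked a macrophage subcluster, together with *S100a8*, *S100a9*, *G0s2*, *Slpi* and *Il1r2*. Those genes are also in the neutrophil list used here, so the list does not separate such macrophages from neutrophils. The part of either in the *Hdc* signal was not tested. On Day 7 and Day 14 *Hdc* had too few UMIs to place.

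**Figure D2:**
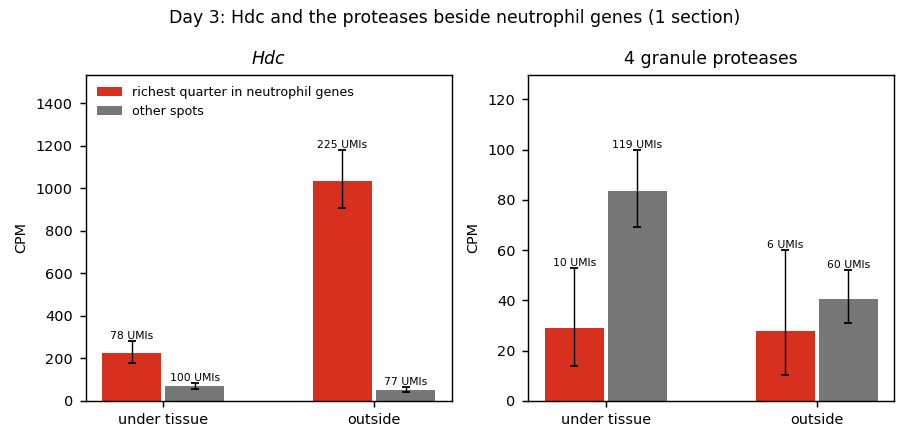
The y axis is CPM on Day 3 for *Hdc* (left) and the 4 granule proteases (right); red bars are the 25% of spots richest in neutrophil genes, grey bars the other spots, under and outside the marked tissue, and error bars are exact Poisson 95% intervals. *Hdc* stands at 225 against 70.2 CPM under tissue, and the proteases at 28.8 against 83.5 CPM.

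*Kit* was set beside melanocyte genes in the same way, because melanocytes of hair follicles carry this receptor. The 8 melanocyte genes summed to 49.1, 61.0 and 528 CPM in the order of days. *Dct* and *Pmel*, which encode a melanin-forming enzyme and a melanosome protein, had 629 and 733 UMIs on Day 14 against 55 and 53 on Day 7. In the 25% of spots richest in melanocyte genes on Day 14, *Kit* was at 20.6 CPM (29 UMIs), and in the other spots at 13.1 CPM (42 UMIs), a ratio of 1.57 whose interval (0.945 to 2.59) includes 1. Outside the marked tissue the same contrast was 10.4 against 3.59 CPM (20 and 10 UMIs, ratio 2.89, 1.29 to 6.91), though 315 of those melanocyte-ranked spots held no melanocyte UMI. Under tissue the proteases were at 69.7 against 107 CPM in these spots (ratio 0.653, 0.516 to 0.820), and outside at 58.1 against 51.7 CPM (ratio 1.12, 0.870 to 1.45). *Kit* was not clearly tied to the proteases either: on Day 14 it was at 17.6 CPM in the 243 spots with a protease UMI and at 13.4 CPM in the other 454 (ratio 1.31, 0.802 to 2.17). Of the 15 lists of other cells, only macrophage genes gave a *Kit* contrast under tissue on Day 14 whose interval excluded 1. In the 25% of spots richest in them *Kit* was at 25.3 CPM, and in the other spots at 12.8 CPM (24 and 47 UMIs, ratio 1.97, 1.15 to 3.29). Outside the marked tissue this contrast was 1.13 (0.485 to 2.49). Besides melanocyte genes, the intervals that excluded 1 outside were those of matrix fibroblast (3.42, 1.57 to 7.66), epidermal (3.17, 1.43 to 6.93) and muscle genes (0.328, 0.0980 to 0.872). The part of melanocytes, or of any other cell, in the higher *Kit* of Day 14 was not tested.

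A further 55 genes of mast cell biology were read in 7 groups. From Day 3 to Day 7, 13 of the 32 with enough UMIs were at least 2-fold lower and 0 higher, where 7.89% of all genes were lower and 9.74% higher. From Day 3 to Day 14, 21 of 33 were lower and 1 higher, where 8.14% of all genes were lower and 16.0% higher. Many of these genes are also used by other leukocytes. *Srgn*, the core protein of granule proteoglycan, had 1346, 257 and 190 UMIs, or 759, 57.8 and 41.2 CPM. *Alox5ap*, needed for leukotriene synthesis, was at 93.1, 43.0 and 24.5 CPM. *Il33*, an alarmin of stromal and epithelial cells, was at 95.4, 38.5 and 22.1 CPM, and its receptor *Il1rl1* at 32.2, 11.7 and 3.69 CPM. *Mrgprb2*, the receptor through which basic peptides degranulate mast cells without IgE, had 1, 7 and 37 UMIs under tissue, that is 0.564 (0.0143 to 3.14), 1.58 (0.633 to 3.25) and 8.02 (5.65 to 11.1) CPM. Day 14 was 5.09 times Day 7 for *Mrgprb2* (2.24 to 13.5). *Adora3*, an adenosine receptor, had 8, 2 and 18 UMIs. From Day 7 to Day 14 these 2 of the 32 genes read were at least 2-fold higher and 5 lower (*Il1rl1*, *Lyn*, *Hpgds*, *Ltc4s* and *Hnmt*), against 12.6% and 8.45% of all genes. Both reached the minimum only through Day 14, where they are high. *Kitl*, which encodes stem cell factor, was at 33.9, 20.5 and 28.6 CPM from 60, 91 and 132 UMIs. The basophil proteases *Mcpt8* and *Prss34* had 1, 8 and 5 UMIs and 0, 0 and 3 UMIs under tissue.

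Spots holding several members were then located. Under tissue, 35 of 664 spots on Day 3, 31 of 549 on Day 7 and 90 of 697 on Day 14 held UMIs of 2 or more members, which is 5.27% (3.70 to 7.25), 5.65% (3.87 to 7.92) and 12.9% (10.5 to 15.6). These shares follow depth: the median spot with 2 or more members held 6907, 9735 and 8948 UMIs on the 3 days, against 1141, 5007 and 3492 in spots that neither held nor touched one. With every spot thinned to 1000 UMIs, and 238, 24 and 18 shallower spots left out, 3 of 426, 2 of 525 and 4 of 679 spots remained, or 0.704% (0.145 to 2.04), 0.381% (0.0462 to 1.37) and 0.589% (0.161 to 1.50). At equal depth a difference between days in this share was not detectable. With *Hdc* and *Kit* left out, and without thinning, 13, 23 and 68 spots held 2 or more of the remaining members. That is 1.96% (1.05 to 3.32), 4.19% (2.67 to 6.22) and 9.76% (7.66 to 12.2) of spots.

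The spot with the most members lay under tissue on Day 3 and held 6 of the 8, with 8 *Cma1*, 3 *Mcpt4* and 1 UMI each of *Tpsb2*, *Cpa3*, *Kit* and *Hdc* among its 3853 UMIs. Another Day 3 spot held 6 *Mcpt4*, 5 *Cma1*, 1 *Cpa3* and 3 *Hdc* UMIs. On Day 7 no spot under tissue held more than 3 members. The richest Day 7 spot lay outside the marked tissue, 11.8 spot pitches from it (a pitch is the distance between neighbouring spots), with 10 *Mcpt4*, 8 *Cma1*, 3 *Tpsb2* and 3 *Cpa3* UMIs among 5646. On Day 14 the richest spot held 11 *Mcpt4*, 5 *Cma1* and 1 UMI each of *Tpsb2*, *Cpa3* and *Kit* among 8428. *Mcpt4* and *Cma1* were found together in 7, 10 and 32 spots under tissue, out of 18, 33 and 61 spots with *Cma1*.

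**Figure D3:**
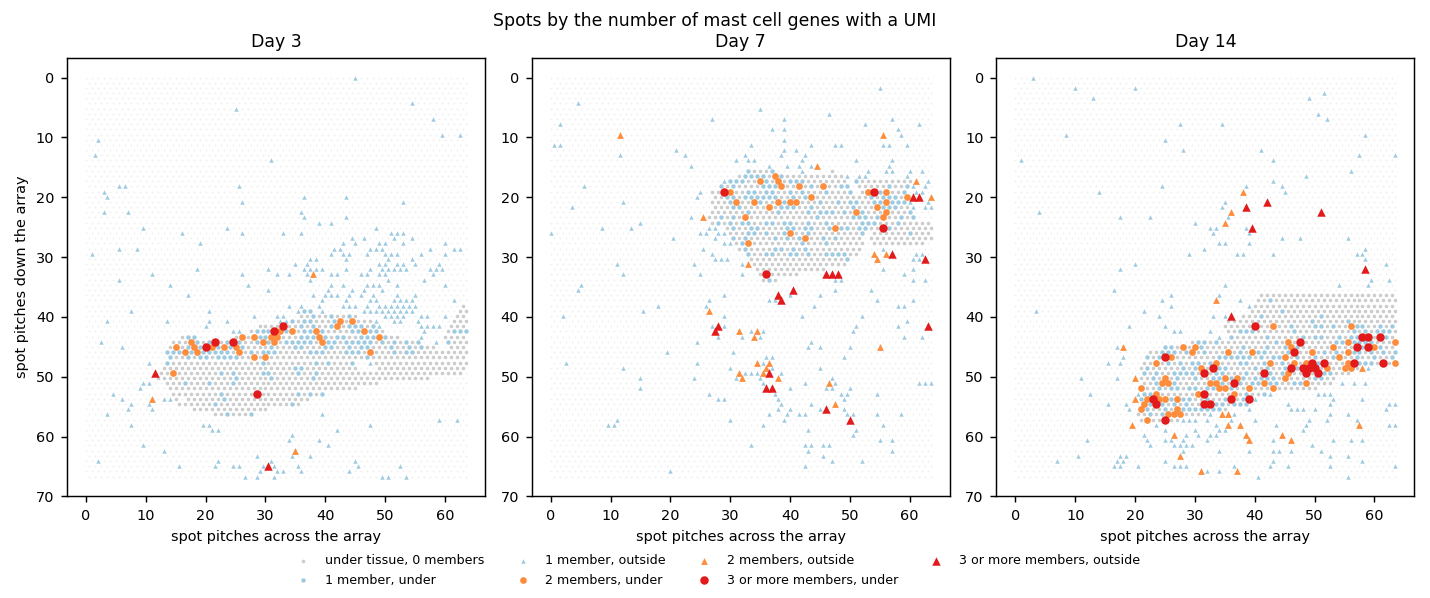
Each panel maps 1 section, with both axes in spot pitches along the array; circles are spots under the marked tissue, triangles spots outside it, and colour gives how many of the 8 members had a UMI (blue 1, orange 2, red 3 or more). Spots with 2 or more members number 35, 31 and 90 under tissue and 5, 42 and 28 outside it on Day 3, Day 7 and Day 14.

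The spots around those with 2 or more members were read without the latter, whose counts the choice had fixed. This also caps every spot read at 1 member, and adjacent spots were deeper than remaining ones (on Day 3 a median of 3879 against 1141 UMIs). The members summed to 120 CPM in the adjacent spots and 119 CPM in the remaining spots on Day 3 (ratio 1.01, 0.744 to 1.37), 46.9 and 35.4 CPM on Day 7 (1.33, 0.954 to 1.83) and 61.3 and 52.1 CPM on Day 14 (1.18, 0.886 to 1.57). For the 4 granule proteases the ratios were 1.75 (0.822 to 3.80), 1.32 (0.919 to 1.88) and 1.32 (0.963 to 1.81). All 6 intervals include 1. The cap bears more on deeper spots and can lower these ratios, so they do not decide whether the members cluster. When *Hdc* and *Kit* were left out both of the choice of spots and of the sum, the adjacent spots were higher on each day, at 3.35 times (1.88 to 5.83), 1.53 times (1.06 to 2.18) and 1.38 times (1.04 to 1.84) the remaining ones. Of the spots with 2 or more members, 20 of 35, 11 of 31 and 60 of 90 touched another, and the spots touching one were deeper (median 4639, 8746 and 6728 UMIs) than the other spots (1171, 5182 and 3777 UMIs).

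The spots with 2 or more members lay nearer to epidermis and farther from muscle than the other spots on each day. On Day 3 only 13 of these 35 spots would qualify without *Hdc* and *Kit*, against 23 of 31 and 68 of 90 later. The distances and ratios below therefore rest in part on those 2 genes, most of all on Day 3. The median distance to the nearest of the 10% of spots richest in epidermal genes was 1.73 pitches for spots with 2 or more members and 4.58 for the other spots on Day 3, 2.65 and 4.47 on Day 7, and 2.65 and 5.57 on Day 14. The distance to the nearest muscle-rich spot was 6 against 3.61, 6 against 4 and 8.36 against 5.29 pitches. Matrix fibroblast genes, led by the collagens, were at 1.49 times (1.46 to 1.51) their level in other spots on Day 3, 1.01 times (0.995 to 1.02) on Day 7 and 1.19 times (1.18 to 1.20) on Day 14, and muscle genes at 0.445, 1.08 and 0.717 times. Endothelial genes showed no such contrast on Day 3 or Day 14 (ratios 1.11, 0.929 to 1.31, and 1.08, 0.918 to 1.27) and were at 0.817 times (0.699 to 0.949) on Day 7.

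Because deep spots catch more members, the surroundings were also read the other way, from spots chosen by genes of other tissues. Protease levels were compared between the 25% of spots under tissue richest in a list of 10 marker genes and the other spots. Depth still differed between these sets, in either direction. The median was 3275 against 1182.5 UMIs for matrix fibroblast genes on Day 3, and 2439 against 8566 for muscle genes on Day 7. On Day 3 the proteases were concentrated in collagen-rich spots, at 136 against 33.2 CPM for matrix fibroblast genes (93 and 36 UMIs, ratio 4.09, 2.75 to 6.18). They were also higher beside epidermis (103 against 51.1 CPM) and hair follicle and sebaceous gland genes (106 against 50.7 CPM). *Mcpt4*, 58.9% of these UMIs, carried much of this, with ratios of 6.43 (3.61 to 12.2), 2.71 (1.65 to 4.53) and 2.58 (1.59 to 4.28) in that order. *Cma1* gave 2.07 (0.946 to 4.63), 1.23 (0.557 to 2.70) and 1.01 (0.442 to 2.21). For *Tpsb2* and *Cpa3* the intervals include 1, except *Cpa3* with matrix fibroblast genes (3.95, 1.14 to 17.3). The summed proteases were lower in granulation tissue spots (25.5 against 91.9 CPM) and in muscle (13.5 against 81.3 CPM, from 3 and 126 UMIs). Granulation tissue, marked by *Postn*, *Tnc* and *Fn1*, is the new tissue that fills a wound. Its 10 genes summed to 2552, 8080 and 1904 CPM under tissue in the order of days. The richest 25% is relative to each section, so on Day 14 it was taken where these genes were lowest. On Day 7 the proteases were low both in granulation tissue spots (22.9 against 58.7 CPM, ratio 0.391, 0.270 to 0.554) and in collagen-rich spots (27.7 against 56.1 CPM, ratio 0.495, 0.353 to 0.685). They remained higher beside epidermis (62.1 against 39.1 CPM) and hair follicle genes (67.9 against 37.4 CPM). On Day 7 they were also higher in spots rich in fat genes (66.5 against 38.6 CPM, ratio 1.72, 1.25 to 2.35). The same held for neutrophil genes (62.5 against 39.1 CPM, ratio 1.60, 1.16 to 2.17). On Day 14 the order was different. The proteases were at 169 against 74.0 CPM in granulation tissue spots (176 and 264 UMIs, ratio 2.28, 1.87 to 2.77), at 188 against 67.7 CPM in collagen-rich spots (2.77, 2.29 to 3.36) and at 165 against 77.5 CPM in macrophage-rich spots (2.12, 1.74 to 2.59). Beside epidermis and hair follicle genes they were now lower, with ratios of 0.796 (0.645 to 0.978) and 0.681 (0.551 to 0.837). Outside the marked tissue these contrasts differed for the 8 members together. On Day 14 they were 1.92 (1.498 to 2.459) for epidermal and 1.57 (1.22 to 2.02) for hair follicle genes. On Day 7 they were 0.654 (0.475 to 0.883) and 1.003 (0.809 to 1.24). Matrix fibroblast (2.02) and macrophage genes (1.63) stayed above 1 outside on Day 14, and granulation tissue genes gave 1.27 (0.958 to 1.66). The difference between the days was not tested, since each day is 1 section.

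**Figure D4:**
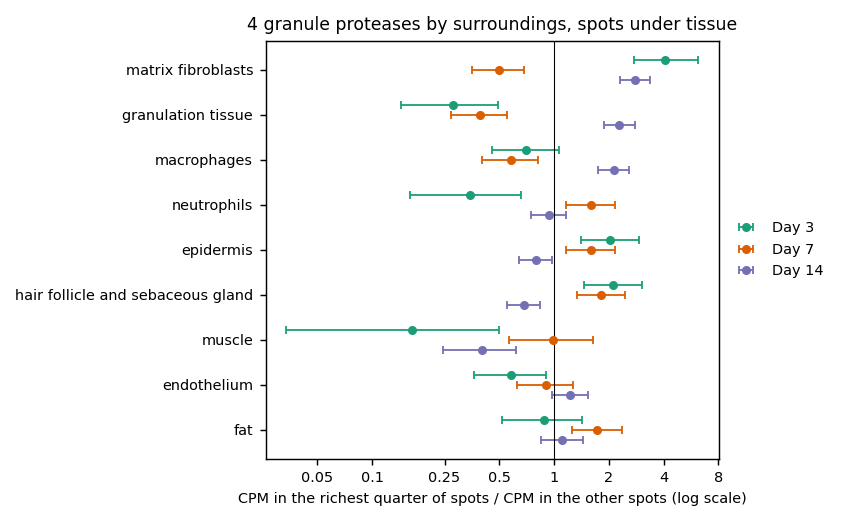
The x axis, on a log scale, is the CPM of the 4 granule proteases in the 25% of spots under tissue richest in a marker list over that in the other spots, with exact 95% intervals; the y axis names the list and colour the day. For granulation tissue genes Day 3 (0.277) and Day 7 (0.391) lie below 1 and Day 14 (2.28) above it.

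Outside the marked tissue the members had another balance. The 4 granule proteases were at 38.8, 57.1 and 54.3 CPM from 66, 369 and 256 UMIs, so that outside over under tissue was 0.532 (0.390 to 0.722), 1.29 (1.08 to 1.54) and 0.569 (0.486 to 0.665). Day 14 over Day 7 was 0.950 (0.807 to 1.12) for the proteases outside, against 2.15 under tissue. On Day 7 *Cma1* (13.6 against 7.43 CPM), *Tpsb2* (14.4 against 9.45 CPM) and *Cpa3* (7.90 against 4.28 CPM) were higher outside, while *Mcpt4* was level (21.2 against 23.2 CPM, ratio 0.915, 0.704 to 1.19). *Hdc* on Day 3 was 1.77 times (1.46 to 2.14) as high outside, with 302 UMIs. By the rule of at least 2-fold and 20 UMIs, 1 of 6 members was lower outside on Day 3 (*Mcpt4*) and 0 higher, against 18.5% and 3.75% of all genes read. On Day 7, 0 of 5 were called, against 10.5% lower and 3.73% higher. On Day 14, 2 of 5 were lower (*Mcpt4* and *Kit*) and 0 higher, against 16.0% and 2.81%. The Day 7 protease signal outside was highest between 1.5 and 3 pitches from the marked tissue (101 CPM, 78.0 to 128) and was still 57.3 CPM (49.6 to 65.8) at 10 pitches or more. Of the 42 outside spots with 2 or more members on Day 7, 41 held at least 1000 UMIs and 20 lay 10 pitches or more from the marked tissue. What the unmarked spots covered was not analysed here.

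Other genes were set beside the spots with a protease UMI, 61 on Day 3, 158 on Day 7 and 243 on Day 14. Among the 55 mast cell biology genes, 2 of 25 with enough UMIs were at least 2-fold higher in these spots on Day 3 (*Ndst2*, an enzyme of heparin synthesis, and *Ltc4s*, leukotriene C4 synthase) and 2 lower (*Il1rl1* and *Stat5b*), where 5.21% of all genes were higher and 6.94% lower. On Day 7 it was 0 of 26 in each direction, against 1.23% higher and 1.12% lower. On Day 14, 1 of 24 was higher (*Lat2*, an adaptor of IgE receptor signalling, 19.4 against 9.61 CPM) and 0 lower, against 1.40% and 0.998%. *Mrgprb2* on Day 14 was at 10.4 against 5.85 CPM in these spots (ratio 1.77, 0.874 to 3.72). These counts of 0 to 2 genes rest on few UMIs.

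The genes most enriched in spots with 2 or more members differed from day to day, and since deep spots were chosen they are given as a description. On Day 3 they were *Myl9* (3.52-fold), *Gpnmb* (2.84), *Ces4a* (3.66), *Unc45a* (3.13), *Ptn* (3.29) and *Dip2a* (3.84), with the muscle genes *Cmya5* (0.0990) and *Ttn* (0.292) and with *Tcea3* (0.0564) at the low end. On Day 7 they were *Tbc1d8*, *Flt3l*, *Katnbl1*, *Arhgap24*, *Ccr7* and *Tbl3*, between 2.56-fold and 3.30-fold on 15 to 25 UMIs in these spots, with *Rnf144b*, *Smpd3* and the myosin gene *Myh1* lowest. On Day 14 they were the chemokine *Ccl5* (124 against 43.5 CPM, 2.86-fold), *Decr2*, *Megf6*, *Igfbp2*, *Prss35* and *Asns*, and the lowest were *Trdn*, *Bc1* and *Hba-a1*. Across spots under tissue, the pattern most like the summed members was that of the collagen genes *Col1a2* (Pearson r 0.312, 0.140 and 0.339 over 664, 549 and 697 spots, on log UMIs per 10000) and *Col1a1* (0.312, 0.0904 and 0.330). *Apoe*, *Mt1* and *H2-K1* followed, each with a mean r between 0.222 and 0.228. The spots of a section share 1 library and differ in depth, and these weak correlations of sparse counts describe the sections only.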

How the data were processed

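The authors deposited raw UMI counts per gene and spot, made with Space Ranger 1.3.0 on build mm10 according to the submitters' processing notes, together with lists of spot positions that mark the tissue. The annotation is not given in the sources used here. Nothing was normalized before deposit. The 3 matrices hold all 4992 spots and the same set of spot barcodes, because the arrays share a layout. Here, the members' UMIs were summed over spots and divided by all UMIs (CPM, base 1000000). Sums have exact Poisson intervals, shares Clopper-Pearson intervals and ratios exact conditional binomial intervals, at 95%. UMIs of 1 section are not independent of each other in space, so intervals cover counting error only.

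With 1 section per day there was no test. A gene counted as higher or lower at 2-fold with at least 20 UMIs over the sets compared. Spots were thinned to 1000 UMIs without replacement (seed 1). Lists were ranked by their share of a spot's UMIs, leaving out members. Named genes were the 8 members, the listed genes with at least 20 UMIs in a section, the 6 highest and 3 lowest genes in spots with 2 or more members (at least 50 UMIs, ranked by interval bound) and the 5 most alike across spots. *Adora3*, *Mcpt8*, *Prss34* and *Tpsab1* fell under that minimum and were named after their values were seen. The members and lists were chosen with earlier results of these data known. RefSeq held promoters for 7 of the 8 members. Simulated counts with known ratios were used to check the interval code. No doublet caller or deconvolution was run. Alternatives used edgeR 4.0.16 and DESeq2 1.42.0 for scaling only, and Python 3.11.15, numpy 2.4.6, scipy 1.17.1, pandas 2.3.3, matplotlib 3.10.9 and R 4.3.3 were used throughout.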

Additional observations from a re-analysis of the deposited data

Results flagged for a closer look

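For the 4 granule proteases, 6 marker lists gave contrasts in opposite directions on different days, beyond counting error; the difference between days was not tested, because each day is 1 section. The values are the CPM in the 25% of spots under tissue richest in the list over that in the other spots. In the order Day 3, Day 7, Day 14, matrix fibroblast genes gave 4.09, 0.495 and 2.77. For granulation tissue genes the ratio was 0.277, 0.391 and 2.28, and for macrophage genes 0.702, 0.577 and 2.12. For neutrophil genes it was 0.345, 1.60 and 0.933. For epidermal genes it was 2.02, 1.59 and 0.796, and for hair follicle and sebaceous gland genes 2.09, 1.82 and 0.681. Outside the marked tissue the epidermal contrast of the 8 members together was 0.654 on Day 7 and 1.92 on Day 14. There it changed in the other direction. The richest 25% was taken within each section, whatever the level of the list. Under tissue the neutrophil genes summed to 2374, 165 and 108 CPM in the order of days. The granulation tissue genes summed to 2552, 8080 and 1904 CPM.

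The balance between spots outside and under the marked tissue also changed direction between days, again untested. For the 8 members together, outside over under tissue was 1.22, 1.24 and 0.555 in the order of days. For the 4 granule proteases it was 0.532, 1.29 and 0.569, and for *Cpa3* 0.520, 1.85 and 0.587. The Day 3 value of *Cpa3* rests on 7 UMIs outside and 14 under tissue, and its interval (0.178 to 1.38) includes 1.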

How the results depend on the processing

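No paired analysis was possible because each day has 1 section, and for the same reason no section could be left out within a day. Leaving out *Hdc* (an alternative added after seeing the data), or *Hdc* and *Kit*, moved the summed members most: Day 7 over Day 3 went from 0.290 to 0.628 or 0.611, Day 14 over Day 3 turned from 0.620 to 1.38 or 1.30, and outside over under tissue on Day 3 turned from 1.22 to 0.546 or 0.528. In spots with at least 500 UMIs the last value was 0.808. With all spots of the slide, Day 14 over Day 3 was 0.433 and Day 14 over Day 7 was 1.45. The mean of spot CPM gave outside over under tissue of 1.0 on Day 7 and 0.690 on Day 14. The ratio in spots adjacent to those with 2 or more members went on Day 3 from 1.01 to 3.35 without *Hdc* and *Kit*, 2.70 without *Hdc* and 1.69 with 3 or more members, and on Day 14 from 1.18 to 1.60 with 2 rings. The share of spots with 2 or more members rests on depth: it was 4.65% (Day 3) and 2.56% (Day 14) when thinned to 2000 UMIs, 0% (Day 7) and 0.145% (Day 14) when thinned to 500, and 5.27%, 5.65% and 12.9% unthinned. With 3 or more members it was 0% on Day 7 and 0.147% on Day 14, and without *Hdc*, with or without *Kit*, 0% on Day 7. The 8 members' neutrophil contrast on Day 3 turned to 0.376 without *Hdc* and 0.342 without *Hdc* and *Kit*, and their fascia fibroblast contrast on Day 14 to 0.973 in the richest 10% of spots. The cause was not tested. Subtracting distant outside CPM gave no value for ratios to Day 3 or Day 7, where outside was higher (298.9 against 181 CPM on Day 3, 65.3 against 52.4 on Day 7).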
